A study of Homo sapiens with 6 samples.

Results

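Transcripts of 10 genes of the EGF receptor system were followed in HEK293A cells: the receptors EGFR, ERBB2, ERBB3 and ERBB4, the ligands HBEGF, AREG, EREG and TGFA, and the feedback inhibitors ERRFI1 and LRIG1. They were taken by name from 60676 Ensembl gene IDs, and each matched a single ID. HEK293A is a strongly adherent subline of HEK293, which was derived from human embryonic kidney. Cells received either 20 nM of the compound VT01454, which has only this code name here, or the DMSO vehicle, each for 2 h, with 3 libraries of bulk RNA per group. By its title the series asks how PITP, a phosphatidylinositol transfer protein, and phosphoinositides regulate the Hippo pathway. No label ties the samples to separate cultures; the p-values therefore rest on the spread among these 3 and 3 samples, and that spread may be purely technical.

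EGF-family ligands are made as membrane-bound precursors that proteases release, and they bind receptors that pair with each other and signal through RAS and ERK. ERBB2 binds no known ligand and ERBB3 has little kinase activity, so both act mainly in pairs with other members. The system is held in check by proteins made in answer to its own signal. ERRFI1, also called MIG6, binds the kinase domain of activated receptors and blocks it, and its gene is transcribed within hours of growth factor stimulation. LRIG1 is a membrane protein that promotes receptor degradation.

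The 250 bases before the start of 4 genes are shown so that motifs near the start can be compared: ERRFI1, whose transcript rose, HBEGF, the most abundant ligand, and AREG and EREG, both scarce here. Capitals mark any match to TGACGTCA or the shorter TGACG within it (cyclic AMP response element), TGANTCA (AP-1), GGAATG (TEAD), CCGGAAG (ETS), GCGTGGGCG (EGR), the CArG box of SRF, TATAAA or TATATA, on either strand. Overlapping matches run together.
ERRFI1: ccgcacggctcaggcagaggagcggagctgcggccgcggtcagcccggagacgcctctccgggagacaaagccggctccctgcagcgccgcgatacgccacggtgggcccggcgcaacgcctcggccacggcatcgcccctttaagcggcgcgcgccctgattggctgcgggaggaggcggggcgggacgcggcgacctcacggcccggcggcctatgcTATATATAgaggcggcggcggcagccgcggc
HBEGF: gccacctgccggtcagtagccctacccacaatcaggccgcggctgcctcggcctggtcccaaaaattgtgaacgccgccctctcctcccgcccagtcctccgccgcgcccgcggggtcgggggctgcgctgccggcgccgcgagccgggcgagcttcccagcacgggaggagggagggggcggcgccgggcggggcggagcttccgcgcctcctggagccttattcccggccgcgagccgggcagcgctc
AREG: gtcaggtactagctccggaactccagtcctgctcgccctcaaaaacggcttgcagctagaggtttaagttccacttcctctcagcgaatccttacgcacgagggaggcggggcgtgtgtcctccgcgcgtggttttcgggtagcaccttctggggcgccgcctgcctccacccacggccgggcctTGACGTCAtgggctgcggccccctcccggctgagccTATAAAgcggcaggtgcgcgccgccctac
EREG: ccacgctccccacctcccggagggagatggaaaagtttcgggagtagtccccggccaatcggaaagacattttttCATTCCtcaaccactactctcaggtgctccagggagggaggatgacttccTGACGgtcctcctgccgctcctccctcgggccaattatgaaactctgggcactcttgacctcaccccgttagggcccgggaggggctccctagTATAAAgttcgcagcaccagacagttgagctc
The windows are chr1:8026310-8026559 (minus strand), chr5:140346604-140346853 (minus strand), chr4:74444886-74445135 (plus strand) and chr4:74364895-74365144 (plus strand) of GRCh38.p14, from RefSeq. ERRFI1 held TATATA in 2 overlapping copies whose first bases lay 31 and 29 bases before the start. TATATA occurs in 3.99% of the 35116 promoter windows of 300 bases (250 before the start and 50 after), and among the 9 members with a window in the table ERRFI1 was the one that held it. AREG and EREG held TATAAA 29 and 32 bases before the start, a motif found in 11.5% of windows. AREG also held TGACGTCA at 65 bases, present in 1.85% of windows. EREG held GGAATG on the minus strand at 175 bases, present in 14.0% of windows. It also held the shorter TGACG at 125 bases, present in 24.6% of windows and in 3 of the 9 members (AREG, EREG and TGFA). None of the 9 held a CArG box or the EGR motif, which occur in 1.29% and 0.795% of windows. HBEGF had no capitals in its window. These matches describe letters and not bound sites.

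The libraries held 24646466 to 28880374 counts with VT01454 and 19126039 to 26879796 with vehicle. Levels are given as CPM, the count scaled to a TMM-adjusted library total of 1e+06, where 1 count was worth 0.0346 to 0.0523 CPM before that scaling. The filter on low counts kept 15577 genes for testing, and 9 of the 10 members were among them; EREG was not. Markers known from HEK293 cells were present, with 9 of 11 at 1 CPM or more (VIM at 288 CPM and KRT8 at 943 CPM), while PAX2 and LHX1 stood below 1 CPM. Of 6 leukocyte markers none reached 1 CPM, and PTPRC, CD3E and CD68 were at 0 in every library. Summed leukocyte markers ran from 0.777 to 1.29 CPM with VT01454 and from 0.443 to 0.992 CPM with vehicle. Fibroblast and endothelial markers reached 1 CPM in 4 of 8 cases: COL1A1 (20.6 CPM), COL3A1 (3.98), LUM (2.31) and VWF (1.72). The 8 summed to 23.6 to 32.1 CPM with VT01454 and 24.3 to 36.7 CPM with vehicle. DCN, CDH5 and PECAM1 had at most 2 counts in any library. Of 6 keratinocyte and epithelial markers KRT19 alone reached 1 CPM, and they summed to 29.002 to 30.9 CPM with VT01454 and 27.3 to 38.04 CPM with vehicle.

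After 2 h with the compound the transcript of the inhibitor ERRFI1 was 1.84-fold higher, and no receptor or ligand passed the test. Among the 9 members in the test there was 1 rise and no fall, and the other 8 missed the threshold (edgeR quasi-likelihood test, Benjamini-Hochberg adjusted p below 0.05), where 1.89% of all 15577 tested genes passed, 1.27% higher and 0.616% lower. Only ERRFI1 had an unadjusted p below 0.05 among the 9, against 2239 of all tested genes. The median log2 fold change of the 9 was 0.088, against -0.0073 over all tested genes, with 5 above 0 and 4 below. The ranges of the 2 groups did not overlap for ERRFI1, HBEGF and ERBB3, 3 of 9, where the same held for 21.1% of all tested genes.

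**Figure D1:**
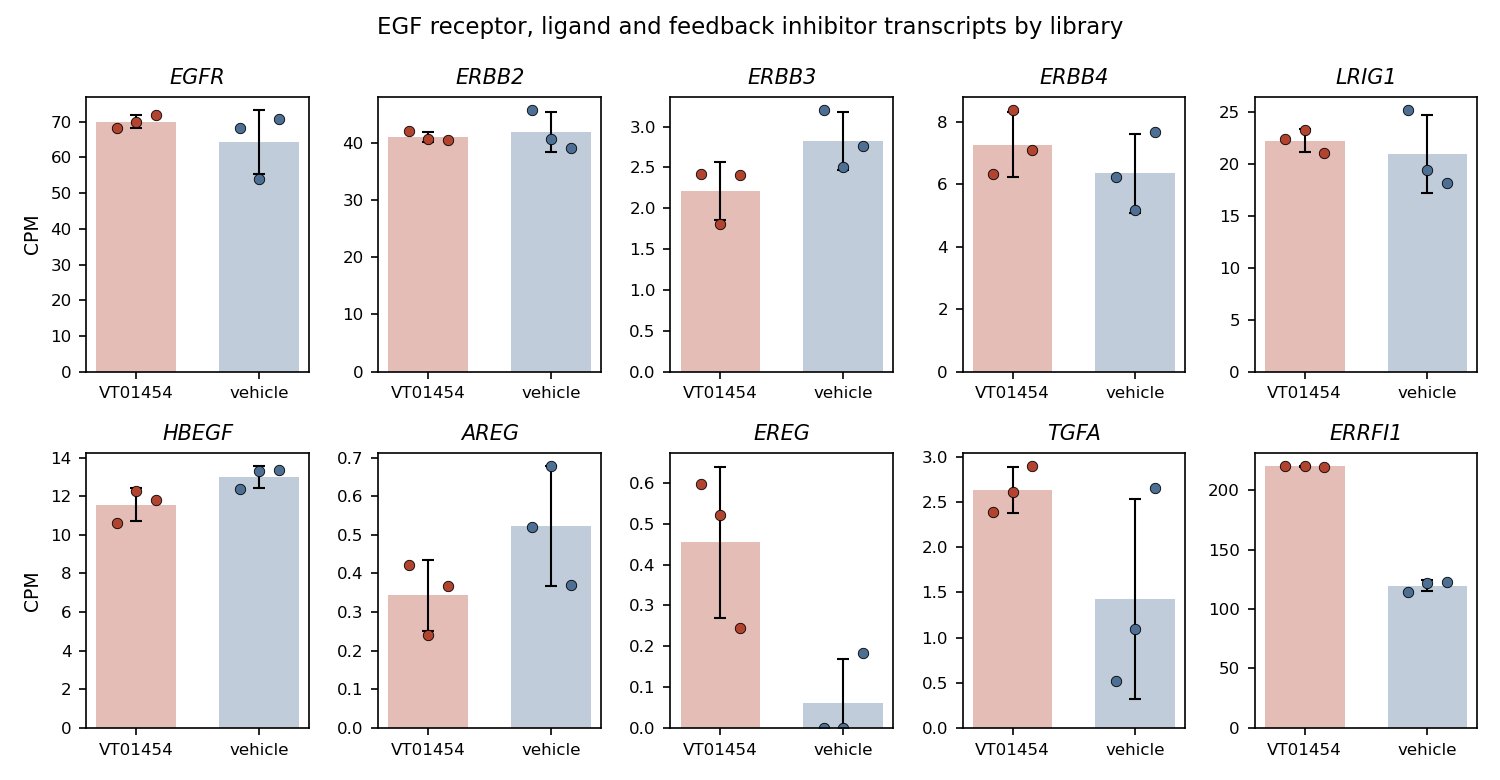
CPM of each of the 10 genes, with VT01454 left and vehicle right; points are libraries 1 to 3 from left to right, bars the mean and lines the SD (n = 3). ERRFI1 lies at 219 to 220 CPM with VT01454 and at 114 to 123 CPM with vehicle, while for TGFA vehicle library 3 lies within the VT01454 range.

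ERRFI1 (ENSG00000116285, chromosome 1, 8004404 to 8026308, minus strand) had 220.1, 220.2 and 219 CPM in the VT01454 libraries, from 6273, 5482 and 5364 counts. It had 114, 122 and 123 CPM in the vehicle libraries, from 2420, 2339 and 3331 counts. All 3 VT01454 libraries lay above every vehicle library, which held for 11.3% of all tested genes. The VT01454 libraries were nearly equal to each other, closer than counting error alone would lead one to expect. Exact 95% Poisson intervals of their counts ran from 6119 to 6430, from 5338 to 5629 and from 5221 to 5510. Their closeness is thus no measure of how uniform the response was. The means were 219.9 ± 0.533 CPM with VT01454 and 119.7 ± 4.84 CPM with vehicle (SD, n = 3 each). The log2 fold change was 0.88 ± 0.06 (SE), with a 95% interval of 0.76 to 0.997 and an adjusted p = 2.31e-06 in edgeR. By p this was the 8th of 15577 tested genes, and by size the 25th of the 198 that rose. With any single library left out the log2 fold change stayed between 0.84 and 0.90 and passed the test, with adjusted p up to 3.84e-04. In bulk RNA more transcript per cell and more cells with the transcript cannot be told apart. An antisense gene without a symbol (ENSG00000284747) overlaps ERRFI1, but had at most 48 counts in a library.

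LRIG1 (chromosome 3, 66378797 to 66501263) had 22.4, 23.3 and 21.1 CPM in the VT01454 libraries and 25.2, 19.5 and 18.2 CPM in the vehicle libraries. The VT01454 values lay inside the vehicle range. Its log2 fold change was 0.088 ± 0.11, with a 95% interval of -0.16 to 0.33 (adjusted p = 0.755, edgeR). A rise as large as that of ERRFI1 lay outside this interval. ERRFI1 transcripts per LRIG1 transcript, each divided by exonic length, came to 16.5, 15.9 and 17.5 with VT01454. With vehicle they came to 7.60, 10.5 and 11.4, without overlap (exact two-sided permutation p = 0.1, the smallest that 3 against 3 libraries allow). This ratio mainly restates the rise of ERRFI1, as LRIG1 did not pass the test. SLC25A26, on the other strand, overlaps LRIG1 and had up to 499 counts in a library, and it is not given in the sources used here whether the counting used strand.

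The receptors EGFR and ERBB2 carried most of the receptor transcripts, and neither passed the test. EGFR (chromosome 7, 55019021 to 55211628) had 68.2, 70.1 and 71.9 CPM in the VT01454 libraries and 68.3, 54.1 and 70.8 CPM in the vehicle libraries. Vehicle library 2 stood below the other 5, which lay close together. The log2 fold change of EGFR was 0.12 ± 0.09, with a 95% interval of -0.074 to 0.31 (adjusted p = 0.573, edgeR), so that a change beyond 1.24-fold upwards lay outside it.

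ERBB2 (chromosome 17, 39687914 to 39730426) had 42.0, 40.7 and 40.4 CPM in the VT01454 libraries and 45.8, 40.6 and 39.1 CPM in the vehicle libraries. The VT01454 libraries lay within the vehicle range. Its log2 fold change was -0.027 ± 0.07, with a 95% interval of -0.19 to 0.13 (adjusted p = 0.894, edgeR). The genes MIEN1 and PGAP3 overlap ERBB2 on the other strand, with up to 375 and 137 counts in a library.

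ERBB4, a neuregulin receptor, and ERBB3, its kinase-impaired relative, were scarce. ERBB4 (chromosome 2, 211375717 to 212538841) had 6.32, 8.40 and 7.11 CPM in the VT01454 libraries and 6.23, 5.17 and 7.68 CPM in the vehicle libraries. The groups overlapped, and the log2 fold change of ERBB4 was 0.18 ± 0.16 (95% interval -0.16 to 0.53, adjusted p = 0.632, edgeR). ERBB3 (chromosome 12, 56076799 to 56103505) had 2.42, 1.81 and 2.41 CPM in the VT01454 libraries, from 45 to 69 counts, and 3.21, 2.505 and 2.77 CPM in the vehicle libraries, from 48 to 75 counts. All VT01454 libraries lay below every vehicle library, as they did for 9.84% of all tested genes. The log2 fold change of ERBB3 was -0.35 ± 0.20, with a 95% interval of -0.78 to 0.078 (adjusted p = 0.448, edgeR), so that neither a fall to 0.582 of the vehicle level nor no change lay outside it.

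The make-up of the receptor pool differed little between groups. After division by exonic length EGFR made up 53.0%, 53.9% and 54.9% of the transcripts of the 4 receptors with VT01454 and 50.9%, 48.4% and 54.7% with vehicle. The means were 53.9% ± 0.905 and 51.3% ± 3.18 (SD, n = 3 each), a difference within the spread of the libraries (exact two-sided permutation p = 0.3). ERBB2 made up 38.3% ± 1.17 with VT01454 and 40.7% ± 3.76 with vehicle, ERBB4 5.39% ± 0.759 and 4.87% ± 0.724. ERBB3 made up 2.36% ± 0.377 with VT01454 and 3.13% ± 0.174 with vehicle, with groups that did not overlap (exact two-sided permutation p = 0.1). ERRFI1 transcripts per receptor transcript of all 4 kinds, on the same length-scaled basis, were 5.12, 5.07 and 5.003 with VT01454 and 2.54, 3.27 and 2.84 with vehicle (exact two-sided permutation p = 0.1). This ratio of transcripts was thus higher in every VT01454 library. It mainly restates the rise of ERRFI1, as no receptor passed the test.

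**Figure D2:**
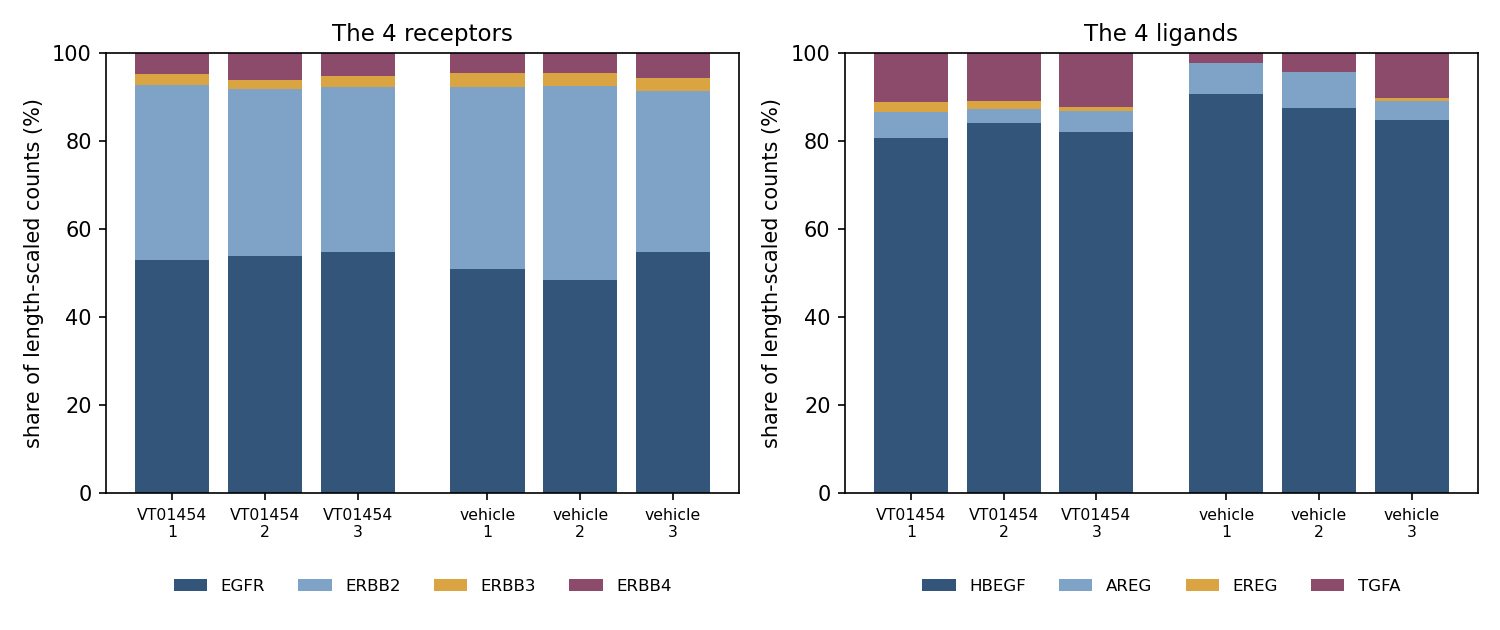
Share of length-scaled counts held by each of the 4 receptors (left) and each of the 4 ligands (right), in percent, for each library. EGFR holds 48.4% to 54.9% of the receptor counts, and TGFA holds 10.9% to 12.3% of the ligand counts with VT01454, against 2.32%, 4.38% and 10.3% in vehicle libraries 1, 2 and 3.

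Among the ligands HBEGF, which binds EGFR and ERBB4 and is often counted with the immediate early genes, was the most abundant, and it did not pass the test. HBEGF (chromosome 5, 140332843 to 140346631) had 10.6, 12.3 and 11.8 CPM in the VT01454 libraries, from 289 to 305 counts, and 12.4, 13.3 and 13.4 CPM in the vehicle libraries, from 255 to 362 counts. The VT01454 libraries lay just below every vehicle library. For 9.84% of all tested genes they likewise lay below every vehicle library. The log2 fold change was -0.17 ± 0.10 (adjusted p = 0.442, edgeR), and its 95% interval of -0.38 to 0.036 left out any rise above 1.03-fold.

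TGFA, a ligand of EGFR, was set apart by the spread of its vehicle libraries. TGFA (chromosome 2, 70447280 to 70554193) had 2.39, 2.61 and 2.90 CPM in the VT01454 libraries, from 68, 65 and 71 counts, and 0.519, 1.096 and 2.66 CPM in the vehicle libraries, from 11, 21 and 72 counts. Vehicle library 3 stood with the VT01454 libraries, while vehicle libraries 1 and 2 were lower. Exact 95% Poisson intervals, which cover counting error only, ran from 5.49 to 19.7 counts in vehicle library 1 and from 56.3 to 90.7 in vehicle library 3. The log2 fold change was 0.83 ± 0.44 and did not pass (95% interval -0.17 to 1.83, adjusted p = 0.436, edgeR). Without vehicle library 3 it was 1.71 and passed (adjusted p = 0.00431), and without vehicle library 1 it was 0.44 (adjusted p = 0.647). Leaving out vehicle library 3 also gave 1170 genes higher and 636 lower over the whole table, where all 6 libraries gave 198 and 96.

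EREG and AREG, neighbouring genes on chromosome 4, were near the limit of detection. EREG (74365143 to 74388751), which encodes a ligand of EGFR and ERBB4, had 17, 13 and 6 counts in the VT01454 libraries and 0, 0 and 5 counts in the vehicle libraries. The exact 95% Poisson interval of a count of 0 reaches up to 3.69 counts. The lowest VT01454 value, 0.245 CPM, lay above the highest vehicle value, 0.185 CPM, but EREG did not pass the filter on low counts and has no test of its own. With no count filter it passed (adjusted p = 0.0178, edgeR), in a setting that called 508 genes higher where the main test called 198. It also passed without vehicle library 3 (adjusted p = 0.0133, edgeR). Without vehicle library 1, vehicle library 2 or VT01454 library 3 it did not (adjusted p = 0.422, 0.2104 and 0.239, edgeR).

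AREG (74445134 to 74455009), which encodes amphiregulin, an EGFR ligand reported elsewhere as a target of YAP, had 12, 6 and 9 counts in the VT01454 libraries and 11, 13 and 10 counts in the vehicle libraries. The groups overlapped in CPM. Its log2 fold change was -0.55 ± 0.42, with a 95% interval of -1.46 to 0.35 (adjusted p = 0.575, edgeR). At this depth neither a fall to 0.364 of the vehicle level nor a rise of 1.27-fold lay outside the interval.

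**Figure D3:**
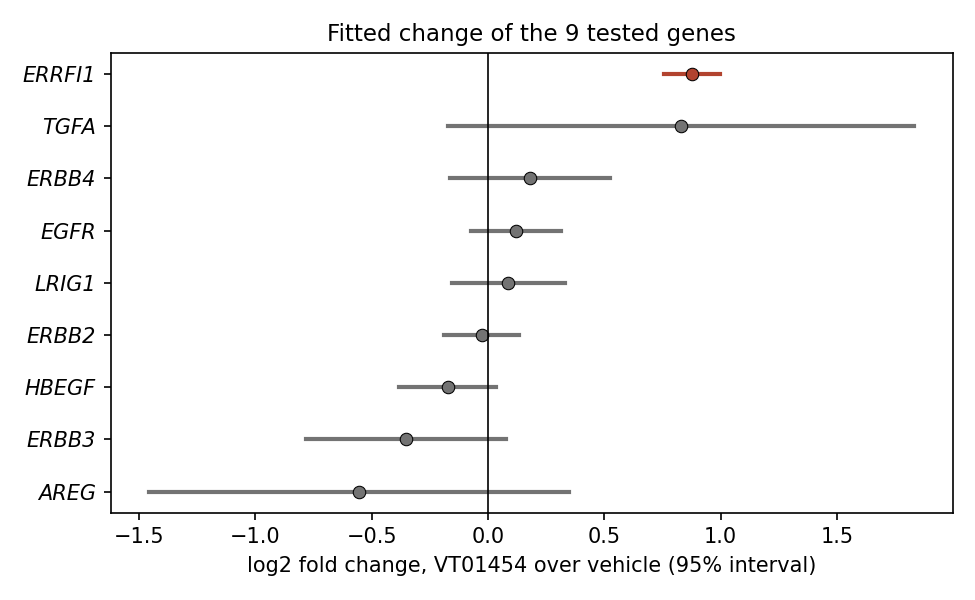
Fitted log2 fold change of VT01454 over vehicle for the 9 tested genes, with 95% intervals; ERRFI1, the gene that passed, is in red. ERRFI1 lies at 0.88 (0.76 to 0.997), and the interval of each of the other 8 spans 0.

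Of the ligand transcripts, divided by exonic length, HBEGF made up 80.7%, 84.2% and 82.1% with VT01454 and 90.7%, 87.5% and 84.8% with vehicle (exact two-sided permutation p = 0.1). TGFA made up 11.05%, 10.9% and 12.3% with VT01454 and 2.32%, 4.38% and 10.3% with vehicle (exact two-sided permutation p = 0.1). Vehicle library 3 was again the vehicle library nearest to the VT01454 libraries in both the HBEGF and the TGFA share. EREG made up 1.73% ± 0.762 with VT01454 and 0.206% ± 0.357 with vehicle (SD, exact two-sided permutation p = 0.1). AREG made up 4.53% ± 1.43 and 6.48% ± 1.98 (SD, exact two-sided permutation p = 0.3). The shares of a library add up to the whole, so the lower HBEGF share and the higher TGFA and EREG shares are not separate results.

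Ordered by level, in CPM per kilobase of exon, ERRFI1 stood first with a median of 40.9 over the 6 libraries (27.3 to 52.6). EGFR followed at 5.53 (4.32 to 5.74), then HBEGF at 4.08, ERBB2 at 3.94 and LRIG1 at 3.09. A lower tier held ERBB4 at 0.516, TGFA at 0.503, ERBB3 at 0.273 and AREG at 0.2398, with EREG last at 0.0376. These medians pool both groups. The ranges over the 6 libraries overlapped for EGFR with HBEGF and ERBB2, for HBEGF with ERBB2 and LRIG1, for TGFA with ERBB4, ERBB3 and AREG, and for AREG with ERBB4 and ERBB3, so the order within these pairs is not settled. The place of TGFA differed between groups: it averaged 0.531 with VT01454, where ERBB3 averaged 0.245 and AREG 0.208, but 0.287 with vehicle, where ERBB3 averaged 0.313 and AREG 0.317. In vehicle libraries 1 and 2 AREG stood above TGFA, and in the other 4 libraries below it. Among 24 receptor tyrosine kinase genes, ranked by mean CPM per kilobase over the 6 libraries, EGFR ranked 7, ERBB2 9, ERBB4 15 and ERBB3 17. FGFR3 and MET stood at the top.

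**Figure D4:**
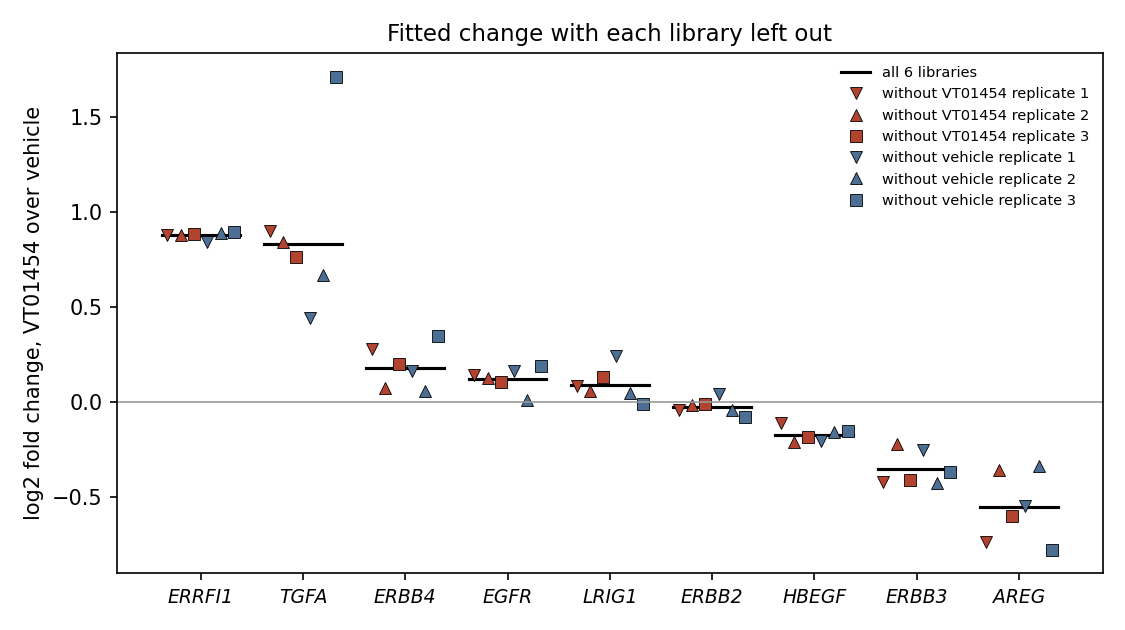
Log2 fold change of VT01454 over vehicle for the 9 tested genes with all 6 libraries (black line) and with each library left out (symbols, red for VT01454 and blue for vehicle). ERRFI1 stays between 0.84 and 0.90, whereas TGFA runs from 0.44 without vehicle library 1 to 1.71 without vehicle library 3.

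Few of the genes that act around the receptors passed the test. Of 70 tested genes in 5 lists 2 rose and 0 fell, against 1.27% and 0.616% of all tested genes; DESeq2 called 3 higher and 0 lower. An unadjusted p below 0.05 was seen for 15 of the 70, beside 2239 of all 15577 tested genes. The log2 fold change was above 0 for 51 of the 70, beside 48.4% of all tested genes, with a median of 0.075 for the 70. Of the RAS-ERK list 17 of 21 lay above 0, and of the turnover and inhibition list 14 of 19; these counts carry no test. LRIG3, a relative of LRIG1, rose 1.26-fold (100.3 ± 2.84 CPM with VT01454 and 79.7 ± 2.40 CPM with vehicle, SD, n = 3 each; log2 fold change 0.33 ± 0.06, adjusted p = 0.0105 in edgeR). TIMP3, an inhibitor of metalloproteases that include the ligand-releasing ADAM17, rose 1.36-fold (41.5 ± 2.63 CPM with VT01454 and 30.6 ± 2.63 CPM with vehicle; log2 fold change 0.44 ± 0.08, adjusted p = 0.0140 in edgeR). For both genes all 3 VT01454 libraries lay above every vehicle library, which held for 11.3% of all tested genes. LRIG3 no longer passed with vehicle library 1 or any single VT01454 library left out (adjusted p = 0.0806, 0.0612, 0.116 and 0.0958), and TIMP3 without VT01454 library 2 or 3 (adjusted p = 0.0764 and 0.131). With LRIG3, 18 of 19 genes of receptor turnover and inhibition did not pass, and with TIMP3, 8 of 9 genes of ligand shedding did not pass. Without vehicle library 3 the 5 lists together had 16 higher and 1 lower. All 15890 genes tested in that setting had 1170 higher and 636 lower.

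**Figure D5:**
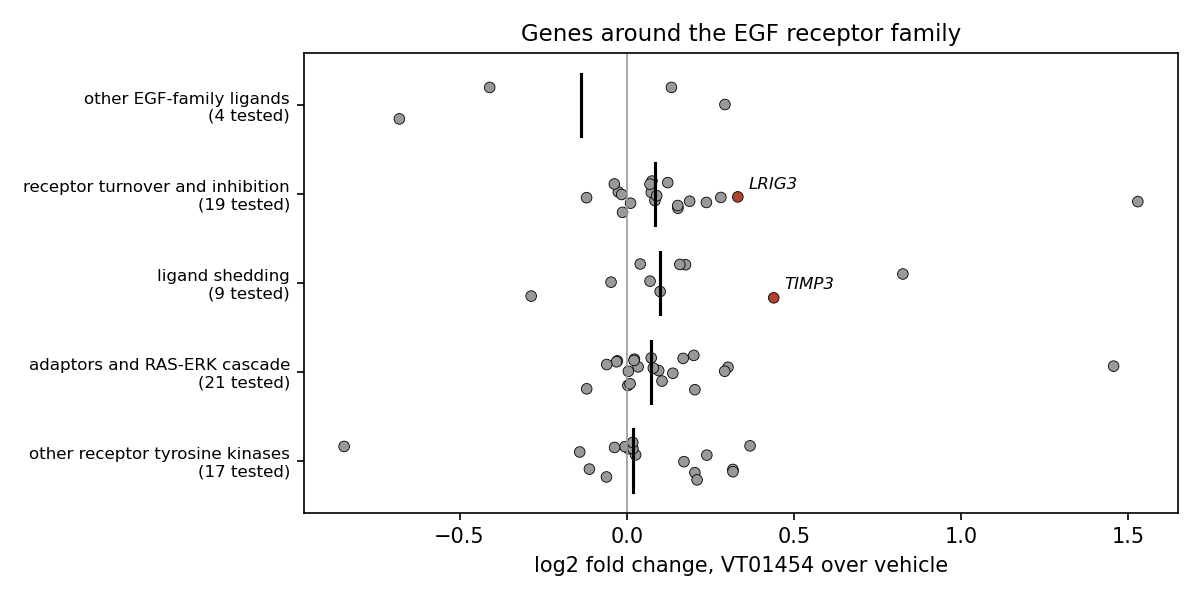
Log2 fold change of VT01454 over vehicle for the 70 tested genes of 5 lists around the EGF receptors; each point is a gene, black lines are list medians, and red points passed the test. LRIG3 at 0.33 and TIMP3 at 0.44 are the points that passed; points farther out did not.

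Of the 7 other EGF-family ligands 4 were abundant enough to test and none passed in edgeR or DESeq2, with 1 at an unadjusted p below 0.05. NRG2, which encodes a neuregulin, stood at -0.68 ± 0.25 on the log2 scale (0.928 CPM with VT01454 and 1.49 CPM with vehicle, adjusted p = 0.245 in edgeR), and EGF itself at 0.29 ± 0.18 (2.98 CPM with VT01454 and 2.43 CPM with vehicle, adjusted p = 0.481). NRG3 had 0 counts in all 6 libraries. None of 21 tested adaptors and members of the RAS-ERK cascade passed in edgeR or DESeq2, and 3 had an unadjusted p below 0.05. The exchange factor gene SOS1 and the kinase gene BRAF, with the smallest p-values of that list, stood at 0.303 ± 0.11 and 0.29 ± 0.10 on the log2 scale (adjusted p = 0.221 and 0.225 in edgeR). Both passed without vehicle library 3 (adjusted p = 0.00239 and 0.00311, edgeR). GAB1, PTPN11 and SOS2 of the same list also passed as higher without that library (adjusted p = 0.0295, 0.0294 and 0.0320, edgeR). None of 17 other tested receptor tyrosine kinases passed in edgeR, with 5 at an unadjusted p below 0.05. The insulin receptor gene INSR stood at 0.32 ± 0.09 (adjusted p = 0.108 in edgeR, 0.0362 in DESeq2) and PDGFRA at -0.85 ± 0.26 (adjusted p = 0.153). Without vehicle library 3 both passed in edgeR (adjusted p = 0.00288 for INSR, higher, and 0.0485 for PDGFRA, lower). MET, IGF1R and ROR1 passed as higher in that setting too.

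The genes whose levels followed ERRFI1 most closely over the 6 libraries were CLK3, a splicing kinase gene, GNPNAT1, an enzyme gene of hexosamine synthesis, and KLF6, a zinc finger factor gene, with Pearson correlations of log2 CPM of 0.998, 0.997 and 0.997. These values describe 6 libraries that fall into 2 groups and carry no test. KLF6 averaged 132 CPM with VT01454 and 70.9 CPM with vehicle, a 1.86-fold rise (adjusted p = 3.01e-06 in edgeR), close to that of ERRFI1. CLK3 rose 1.46-fold (adjusted p = 3.74e-04), and GNPNAT1 stood at 1.09-fold without passing (adjusted p = 0.346).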

How the data were processed

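The authors deposited raw counts of reads by Ensembl gene for each sample, not normalized. Alignment and counting tools were HISAT2 2.2.1 and HTSeq 0.9.1 on hg38, per the submitters' processing notes; the sources used here name neither the annotation release nor the strand setting. Symbols matched 60357 of 60676 IDs; coordinates, 1-based, and exonic lengths came from GENCODE on the same build (58503 IDs). Genes were kept by filterByExpr, scaled by TMM and tested with edgeR 4.0.16 (R 4.3.3; quasi-likelihood, robust, two-sided), adjusted over all tested genes. Standard errors are the log2 fold change over the square root of F, and 95% intervals use the fit's degrees of freedom. CPM per kilobase divides by all annotated exonic bases of a gene. Shares and ratios were tested by exact permutation, which cannot go below 0.1. The steps were tested on simulated counts. Alternatives were DESeq2 1.42.0, limma-voom (limma 3.58.1), other scalings and filters, a replicate block, an adjusted p below 0.01 and leaving out each library. Members, lists and the naming rule were chosen with earlier results of these data known. All members were named, every list gene that passed, the 2 genes of smallest p in lists without one, and the 3 genes most like each member that passed. ADAM12 was chosen after its values were seen.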

Additional observations from a re-analysis of the deposited data

How the results depend on the processing

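ERRFI1 passed as higher in all 13 alternatives, at a log2 fold change of 0.84 to 0.90 (adjusted p from 5.14e-46 in DESeq2 to 3.84e-04 without vehicle library 1), and no member passed as lower in any. Besides TGFA and EREG, no other member passed in any alternative. With no count filter 3 members were higher, ERRFI1, TGFA (adjusted p = 0.0370) and EREG, with 8 list genes higher and 508 genes higher and 205 lower over all. ERRFI1 had an adjusted p of 3.08e-35 there and 2.31e-06 with the filter (edgeR), at log2 fold changes of 0.89 and 0.88. A pass with no count filter is therefore less strict than a pass in the main test. DESeq2 called 298 higher and gave TGFA and EREG no adjusted p. At an adjusted p below 0.01, 94 genes were higher, 31 lower and 0 list genes higher. Leaving out each library gave 1 to 3 members, 0 to 16 list genes and 73 to 1170 genes higher, and 0 members, 0 to 1 list genes and 20 to 636 genes lower. The EGFR share of receptor transcripts differed by 2.62 percentage points (VT01454 minus vehicle), by 2.45 without length scaling and by 1.15 to 4.31 with a library left out. Same-numbered libraries did not deviate together over the tested genes (correlations of -0.070, 0.028 and -0.014). These values give no sign of a pairing by number, but 3 libraries per group cannot exclude one. With the replicate number as a block 232 genes were higher and 107 lower, ERRFI1 stood at 0.88 and 4 list genes were higher (LRIG3, TIMP3, HRAS and INSR). The causes of these differences were not tested. Depth limits AREG and EREG, with at most 17 counts in a library.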

Other observations

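ADAM12, which encodes a metalloprotease that can release membrane-bound ligands, showed the same arrangement of libraries as TGFA. It had 3.404, 4.30 and 2.90 CPM in the VT01454 libraries and 1.09, 1.57 and 3.17 CPM in the vehicle libraries, with vehicle library 3 inside the VT01454 range. Its log2 fold change was 0.83 ± 0.32 (adjusted p = 0.275, edgeR), and 1.42 without vehicle library 3 (adjusted p = 0.00467). HRAS and PTPRK, at 1.46 ± 0.88 and 1.53 ± 0.91, were the widest differences among the list genes and did not pass without a replicate block (adjusted p = 0.528 and 0.518, edgeR); HRAS passed with one (1.23, adjusted p = 0.0301). HRAS had 223, 63 and 30 counts in the VT01454 libraries and 41, 35 and 17 counts in the vehicle libraries. PTPRK had 172, 34 and 39 counts in the VT01454 libraries and 15, 6 and 53 counts in the vehicle libraries, so that VT01454 library 1 stood far above the others for both. Both were chosen after their values were seen.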
